A study of Mus musculus with 6 samples.

Results

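The 4 ErbB receptors and 6 of their EGF-like ligands were followed in the deposited RNA-seq counts of mammary glands that carried either WT or Adamts18-/- epithelium. The members were chosen by gene symbol: Egfr, Erbb2, Erbb3 and Erbb4 for the receptors, and Areg, Egf, Tgfa, Btc, Hbegf and Nrg1 for the ligands. All 10 were found among the 34590 symbols of the count table, and all 10 passed edgeR's filter on low counts, which kept 17345 genes. The 6 libraries came from the left and right inguinal glands (gland number 4) of 3 host mice. In each host the left gland carried WT.EGFP+ and the right gland Adamts18-/-.EGFP+ epithelium, so body side and genotype cannot be told apart. The study describes the 3 pairs as separate experiments, each with another donor. Host, donor and experiment therefore cannot be told apart either.

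Adamts18 is a secreted metalloprotease, and the Adamts18-/- donors were homozygous for an allele without the exons of its catalytic site. Both genotypes expressed enhanced green fluorescent protein from a chicken β-actin promoter, the mouse lines were kept on a C57BL/6JOlaHsd background, and the hosts were WT females whose own epithelium had been removed surgically, so the stroma of every gland was WT. The labels give neither the age of the hosts nor the time after grafting. The labels call the RNA that of sorted GFP-positive epithelial cells, whereas the study speaks of profiled glands. The marker genes went against a pure epithelial sort: the summed level of 6 adipocyte markers, Fabp4 the highest of them, was 5609 to 14010 CPM (counts scaled to library size with edgeR's TMM factors) over the 6 libraries, and that of 6 fibroblast markers, led by Col3a1, was 8015 to 10870 CPM. The summed level of 12 pan-epithelial markers was 1045 to 2088 CPM. The libraries are therefore called glands below, and in such mixed tissue fewer cells of a type and less RNA per cell cannot be told apart.

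ErbB receptors are tyrosine kinases of the cell surface that act in pairs. Egfr binds Egf, Tgfa, Areg, Btc and Hbegf, Erbb3 and Erbb4 bind neuregulins such as Nrg1, Erbb4 also binds Btc and Hbegf, and Erbb2 has no known ligand of its own and serves as the preferred partner of the others. The ligands are made as membrane-bound precursors that proteases such as Adam17 cut free. In the mammary gland, Areg is known as the estrogen-induced paracrine signal of hormone-sensing luminal cells that drives ductal elongation through Egfr in the stroma, and Erbb4 is known for its part in alveolar differentiation and lactation.

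In GRCm38 (GENCODE M21), the receptor genes lie at chr11:16752203-16918158 (Egfr), chr11:98412470-98437716 (Erbb2), chr10:128567523-128589652 (Erbb3) and chr1:68032186-69108059 (Erbb4). Of the ligand genes, 5 lie at chr5:91139599-91148432 (Areg), chr3:129677565-129755316 (Egf), chr6:86195223-86275719 (Tgfa), chr5:91357261-91402994 (Btc) and chr8:31814551-32884029 (Nrg1).

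Stretches upstream of the start are printed for Areg, the member ligand with the highest level per kilobase of exon. They are also printed for the members that passed the thresholds given below, Egf and Erbb4. They were taken from RefSeq's annotation of GRCm38.p6, which held promoters for 7 of the 10 members, and each shows the 250 bases before the annotated start, 5′ to 3′ on the gene's strand. Areg lies on the plus strand (chr5:91139349-91139598 for the stretch shown), Egf on the minus strand (chr3:129755323-129755572, the more upstream of 2 annotated starts) and Erbb4 on the minus strand (chr1:69108060-69108309). Capitals mark a match to the cAMP response element TGACGTCA or to the TATA box TATAAA on either strand.
Areg: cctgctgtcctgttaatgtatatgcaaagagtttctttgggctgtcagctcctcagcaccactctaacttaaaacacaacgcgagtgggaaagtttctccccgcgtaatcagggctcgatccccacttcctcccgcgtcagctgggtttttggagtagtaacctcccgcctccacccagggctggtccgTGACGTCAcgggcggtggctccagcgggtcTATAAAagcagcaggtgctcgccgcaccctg
Egf: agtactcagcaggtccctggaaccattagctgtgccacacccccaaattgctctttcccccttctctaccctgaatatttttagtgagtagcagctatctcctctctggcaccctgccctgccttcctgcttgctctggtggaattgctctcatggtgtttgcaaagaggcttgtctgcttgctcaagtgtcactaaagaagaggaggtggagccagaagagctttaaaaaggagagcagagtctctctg
Erbb4: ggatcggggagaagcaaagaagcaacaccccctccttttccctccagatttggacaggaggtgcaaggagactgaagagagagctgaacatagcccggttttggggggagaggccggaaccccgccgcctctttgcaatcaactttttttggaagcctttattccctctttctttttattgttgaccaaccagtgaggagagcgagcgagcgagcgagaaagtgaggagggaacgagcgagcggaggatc
Areg held the cAMP response element from 61 bases before its start and the TATA box from 31 bases before it. Of 32851 stretches of the same length in the RefSeq table, 1.55% held the first motif and 12.4% the second. No stretch of the other 6 members in the table held either of them, and none of the 7 held the AP-1 motif TGANTCA (6.75% of all stretches) or the full palindromic estrogen response element (0.0639%); both strands were searched. The GC content was 57.2% for Areg, 50.4% for Egf and 54% for Erbb4, with a median of 52.4% over all stretches.

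Total counts ranged from 53875123 to 71595924 per gland. A count of 3, the most that a count of 0 allows, corresponded to 0.0430 to 0.0574 CPM, which covers counting error only. The targeted gene, Adamts18, had 252, 608 and 383 reads in WT glands (mouse 1, mouse 2, mouse 3, the order used throughout) against 144, 295 and 202 on the Adamts18-/- side. This count covers the whole gene and so does not show whether the deleted part was read. No gland was a near copy of another (chi-square per degree of freedom of 34.1 or more between any pair of libraries). The glands of mouse 3 stood apart from the rest, with chi-square values of 135 to 351 to the glands of the other mice, against 34.1 to 101 between glands of mice 1 and 2, so values are given by mouse throughout.

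Per kilobase of annotated exon, which makes genes comparable, Erbb3, Egfr and Erbb2 had the highest levels of the members, followed by Areg (means of 19.9, 14.8, 10.03 and 8.76 CPM per kb over 6 glands, with SDs of 4.76, 5.03, 1.81 and 4.58). Neighbours in this order did not differ beyond their spread: the order Erbb3 over Egfr held in 5 of 6 glands, Egfr over Erbb2 in 4 and Erbb2 over Areg in 3. Areg lay above the next ligand, Btc, in 6 of 6 glands, with a ratio of the means of 7.72 and no overlap of the ranges. Btc, Tgfa and Hbegf (1.13 ± 0.179, 1.07 ± 0.0931 and 0.974 ± 0.412 CPM per kb, SD, n = 6) overlapped each other. Hbegf lay above Erbb4 in 6 of 6 glands.

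Erbb4 and Egf followed at 0.272 ± 0.0914 and 0.259 ± 0.140 CPM per kb, in either order in 3 of 6 glands, and Nrg1 was lowest at 0.0784 ± 0.0479 (SD, n = 6). Erbb4 was thus at 0.373% to 0.877% of the summed per-kilobase level of the receptors in each gland. Areg made up 51.4% to 79.7% of the summed level of the 6 member ligands per kilobase of exon, but 42.4% to 72.1% by the longest transcript and 15.2% to 42.2% by coding length. The length used mattered for the order as well. With the coding length in place of all exons, the order began with Egfr, Erbb3, Tgfa, Areg and Erbb2, and with the longest transcript Egf ranked above Erbb4 and Hbegf above Btc and Tgfa.

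**Figure D1:**
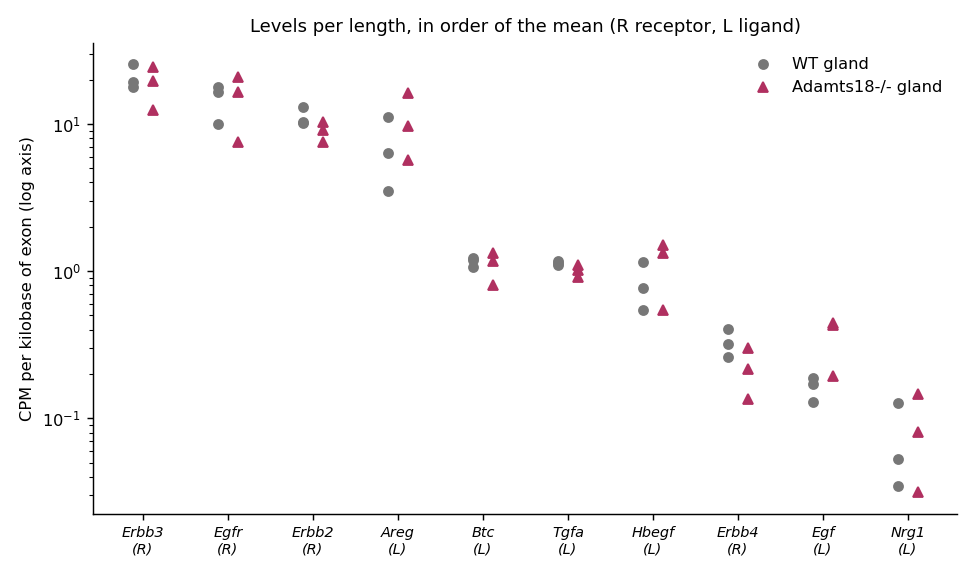
Level of each member in each gland, in CPM per kilobase of annotated exon on a log axis, with genes in order of their mean over 6 glands (R receptor, L ligand; circles WT, triangles Adamts18-/-). Erbb3, Egfr, Erbb2 and Areg sit above the other 6 members, Erbb4 lies well under the other receptors, and Nrg1 is lowest.

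The comparison of Adamts18-/- with WT glands asked which transcripts changed when the epithelium lacked the protease. The study's thresholds require an unadjusted p under 0.05 and a fold below 0.8 or above the inverse of 0.8. By these, Erbb4 was lower and Egf was higher in Adamts18-/- glands, and the other 8 members did not pass. Of all 17345 genes tested, 1.84% were called lower and 1.17% higher, 3.01% in all. The share among the members was 1 of 10 in each direction, so the counts rest on a single gene each. The median log2 fold change was -0.075 over the 10 members and 0.00065 over all genes tested. No member (0 of 10) and no gene (0 of 17345, 0% of all) had an adjusted p under 0.05 in edgeR, where each mouse formed a block, while 670 genes had an unadjusted p under 0.05. By adjusted p, DESeq2 called 71 genes, none of them a member, and limma-voom called 0. The difference of Erbb4 came mainly from mice 2 and 3 and that of Egf from mice 1 and 2.

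Among the receptors, Erbb4, a neuregulin receptor, was at 3.94, 4.97 and 3.23 CPM in WT glands and at 3.69, 2.67 and 1.68 CPM in the contralateral Adamts18-/- glands. Each Adamts18-/- gland was below its partner, but by little in mouse 1, and the groups overlapped because the Adamts18-/- gland of mouse 1 lay above the WT gland of mouse 3. The counts behind these levels were 103 to 305 reads. The fit gave -0.64 on the log2 scale (standard error 0.24) with an unadjusted p of 0.0440 and an adjusted p of 0.987 in edgeR, and the single mice gave -0.095, -0.89 and -0.93. Over the 12 alternatives the adjusted p lay between 0.665 and 1. The unadjusted p was 0.128 when mice were not blocked, and without mouse 2 or mouse 3 it was 0.180 or 0.106 in the same test, with log2 fold changes of -0.60, -0.52 and -0.49.

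Erbb2, the partner receptor without a ligand, was at 53.5, 52.5 and 67.7 CPM in WT glands and at 53.8, 39.0 and 47.1 CPM in Adamts18-/- glands of mice 1, 2 and 3. It was lower in mice 2 and 3 and level in mouse 1. Its log2 fold change of -0.31 (standard error 0.13), a fold of 0.805, had an unadjusted p of 0.0583 in edgeR's test. Erbb2 thus missed both the fold and the p threshold. The unadjusted p was 0.0448 with DESeq2 and 0.0392 in edgeR without a filter, and there Erbb2 missed by its fold alone. Without mouse 1 its log2 fold change was -0.48 and it passed (unadjusted p = 0.0184, edgeR).

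Erbb3, the receptor whose kinase domain is largely inactive and which signals through its partners, was at 116, 107 and 153 CPM in WT glands and at 148, 75.0 and 118 CPM in Adamts18-/- glands. It was higher in the Adamts18-/- gland of mouse 1 and lower in those of mice 2 and 3, so that the fitted log2 fold change came to -0.18 (standard error 0.19, unadjusted p = 0.373, edgeR). Without mouse 1 it was -0.45 and passed the thresholds (unadjusted p = 0.0256).

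Egfr, the receptor of Areg and Egf, was at 186, 200.5 and 113 CPM in WT glands and at 186, 237 and 86.0 CPM in Adamts18-/- glands. Mouse 3 was low in both glands, and the difference was near 0 in mouse 1, 0.24 in mouse 2 and -0.40 in mouse 3 on the log2 scale. The fitted log2 fold change came to -0.049 (standard error 0.14, unadjusted p = 0.741, edgeR), and it was 0.13 without mouse 3 and 0.029 without the block.

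Erbb2, Erbb3 and Erbb4 were lower in mice 2 and 3, where the summed epithelial markers were lower by more than in mouse 1. In mouse 1 these receptors gave 0.0098, 0.34 and -0.095 on the log2 scale. The summed level of the 12 pan-epithelial markers was 1484 to 2088 CPM in WT and 1045 to 1407 CPM in Adamts18-/- glands. Its log2 difference was -0.13, -0.75 and -0.57 in mice 1, 2 and 3. Over single glands Erbb4 did not follow this pan-epithelial sum. In each genotype the gland of mouse 3 had the highest sum and the lowest Erbb4 (3.23 CPM in WT, 1.68 CPM in Adamts18-/-). Other marker sums were, like Erbb4, lowest in mouse 3 of each genotype. Among them were the myoepithelial sum (1067 and 706 CPM) and the adipocyte sum (7202 and 5609 CPM). In Adamts18-/- glands both were highest in mouse 2, whereas Erbb4 was highest in mouse 1. Whether Erbb4 goes with these sums was not tested. Krt8, Krt18, Krt7, Krt19, Prom1 and Spint1 of the pan-epithelial list were called lower, and all 12 had a fitted value below 0. The called 6 were lower in all 3 mice. The other 6 were higher on the Adamts18-/- side of mouse 1, by 0.063 to 0.30 on the log2 scale. The summed level of 8 myoepithelial markers was 1067 to 1871 CPM in WT and 706 to 1323 CPM in Adamts18-/- glands, with 7 of 8 called lower (Acta2, the highest of the list, Cnn1, Krt14, Myh11, Mylk, Oxtr and Trp63). Markers of the hormone-sensing luminal cells were called lower for 5 of 9 genes (Prlr, Foxa1, Cited1, Tbx3 and Wnt4) and those of the secretory luminal cells for 1 of 7 tested (Elf5). No gene of these lists was called higher. These counts depended on the fit: without the mouse block, 4 pan-epithelial, 0 myoepithelial, 2 hormone-sensing and 0 secretory markers were called lower. Without mouse 1 the counts were 12, 6, 5 and 7 in the same order, without mouse 2 they were 2, 4, 3 and 0, and without mouse 3 they were 5, 5, 4 and 0. How much of the receptors' difference goes with this marker level was not tested apart from a rescaling.

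With the libraries scaled to the pan-epithelial sum, which moved the median over the tested genes up by 0.49, Erbb2 and Erbb3 turned from -0.31 and -0.18 to 0.17 and 0.30, and Erbb4 was at -0.16, with unadjusted p of 0.541, 0.300 and 0.627 in edgeR's test. That scaling moves all genes by about the same amount, so each receptor stayed below the median of all genes by construction. Within a library, where no scaling enters, reads of Erbb4 per 100 reads of Erbb3 were 3.39, 4.66 and 2.11 in WT and 2.50, 3.56 and 1.42 in Adamts18-/- glands of mice 1, 2 and 3. This ratio was lower in each of the 3 mice, by -0.44, -0.39 and -0.57 on the log2 scale. In mouse 1 that came mainly from a higher Erbb3 (0.34), with Erbb4 itself at -0.095. Reads of Erbb4 per 100 reads of Erbb2 were 7.38, 9.48 and 4.78 in WT and 6.86, 6.85 and 3.56 in Adamts18-/- glands, lower in each mouse as well. These ratios were not tested.

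**Figure D2:**
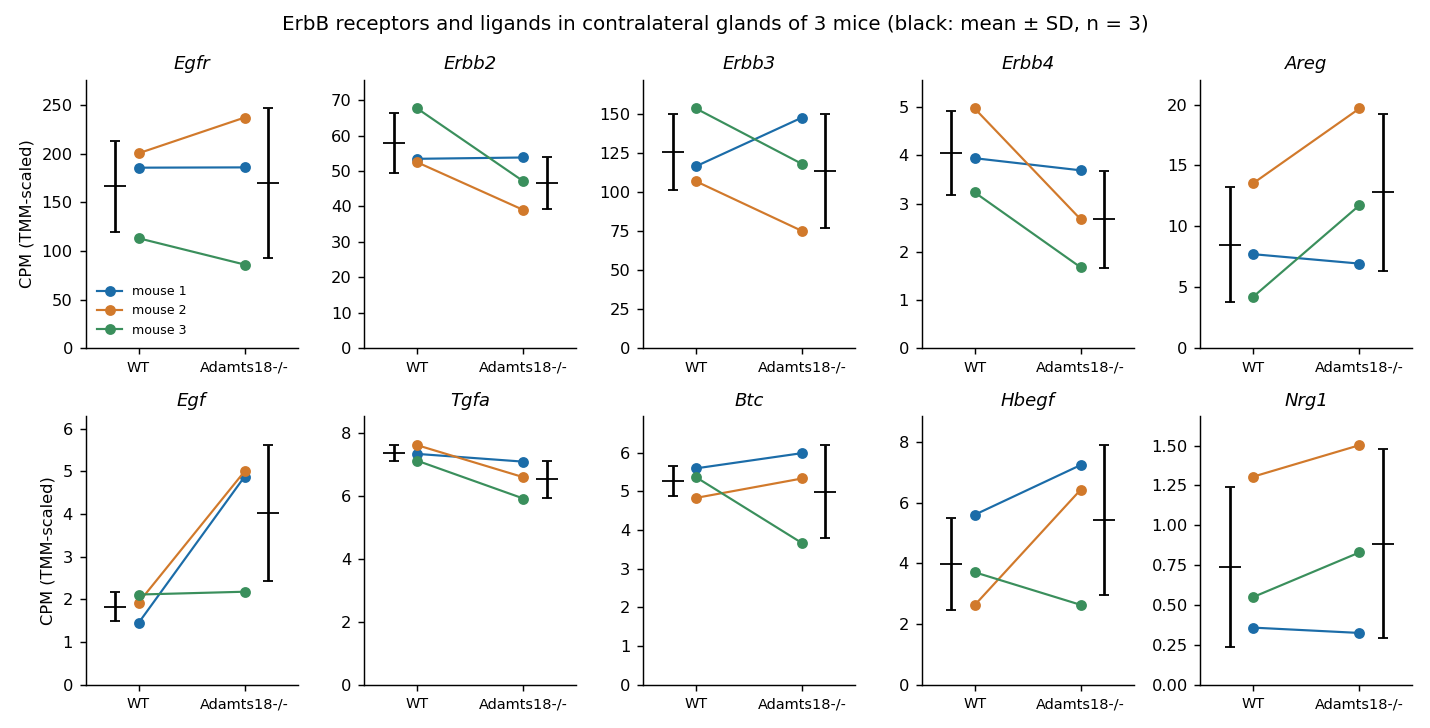
Level of each member in CPM, with a line joining the WT and the Adamts18-/- gland of each mouse, and the mean ± SD of each group beside the points (n = 3, axes start at 0). Erbb4 falls steeply in mice 2 and 3, Egf rises steeply in mice 1 and 2, and the spread between mice is wide for Areg, Hbegf and Nrg1.

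Among the ligands, Egf, named for its effect on epidermal cells, was at 1.45, 1.92 and 2.11 CPM in WT glands and at 4.88, 5 and 2.2 CPM in Adamts18-/- glands. The groups did not overlap, although the highest WT value and the lowest Adamts18-/- value, both of mouse 3, were nearly the same. The reads numbered 101, 118 and 119 in WT and 255, 303 and 134 in Adamts18-/- glands. The fit gave 1.07 on the log2 scale (standard error 0.38) with an unadjusted p of 0.0405 and an adjusted p of 0.987 in edgeR, and the single mice gave 1.73, 1.36 and 0.044. The direction was the same under all 12 alternatives (0.72 to 1.57), and Egf passed the thresholds in 10 of them, the exceptions being those without mouse 1 and without mouse 2 (unadjusted p = 0.167 for both, edgeR). The adjusted p lay between 4.15e-04, with scaling to the pan-epithelial markers, and 1, and it was 0.0391 without mouse 3. Exons of 2 genes on the opposite strand cover 9.82% of the exon bases of Egf in GENCODE M21, and the strand setting of the counting is not given in the sources used here, so whether reads of theirs are counted here was not tested.

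The rise of Egf went with skeletal muscle transcripts. The summed level of 5 muscle markers (Acta1, Ckm, Myh1, Myh4 and Ttn), led by Myh4, was 241, 730 and 2330 CPM in WT and 9261, 9173 and 1578 CPM in Adamts18-/- glands. It was thus far higher in the Adamts18-/- glands of mice 1 and 2, in which Egf was higher, and somewhat lower in that of mouse 3, in which Egf was level. None of the 5 markers (0) passed the thresholds in the blocked edgeR fit. The number called higher was 3 when mice were not blocked, 4 with DESeq2, 5 without mouse 3 and 5 with scaling to the pan-epithelial markers. The genes with the pattern most like that of Egf, by Pearson's correlation of log2 CPM over the 6 glands of 3 mice, were Camk2b (r = 0.994), 2310010M20Rik (r = 0.993) and Pde4dip (r = 0.992). The part of the muscle RNA in the Egf reads was not tested.

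**Figure D3:**
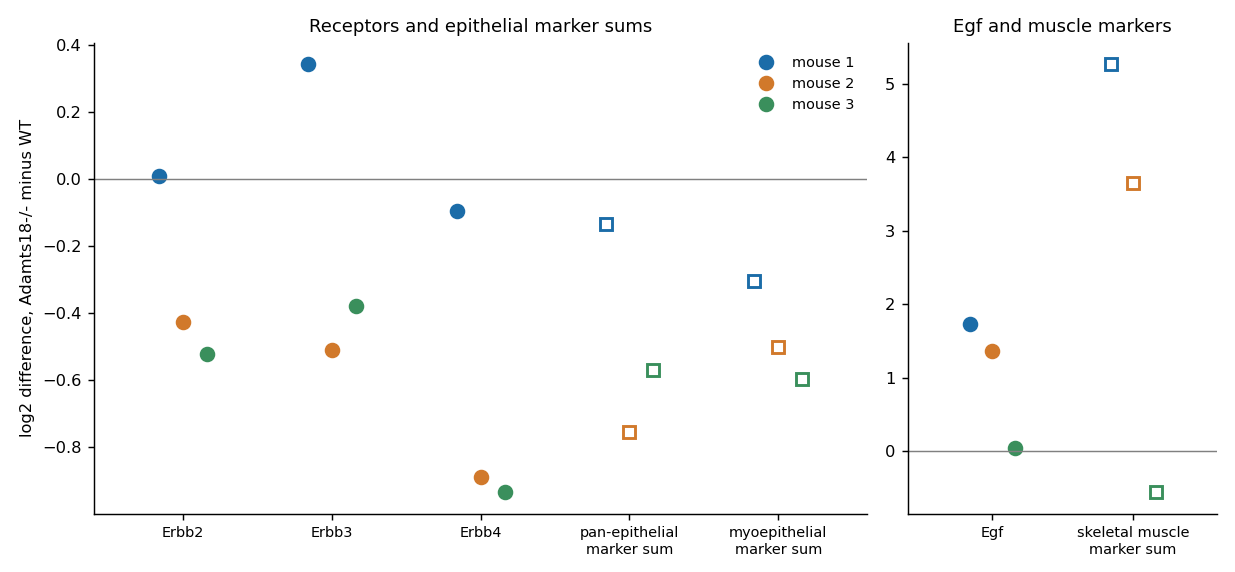
Log2 difference between the Adamts18-/- and WT glands of each mouse for Erbb2, Erbb3 and Erbb4 beside the summed pan-epithelial and myoepithelial markers (left), and for Egf beside the summed skeletal muscle markers (right, own axis). Filled circles are genes and open squares marker sums; mouse 1 has the smallest epithelial difference and the highest receptor values, and mouse 3 lacks both the rise of Egf and that of the muscle markers.

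Areg, the ligand induced by estrogen, was at 7.71, 13.6 and 4.23 CPM in WT glands and at 6.94, 19.7 and 11.7 CPM in Adamts18-/- glands. It was slightly lower in mouse 1 and higher in mice 2 and 3, and the groups overlapped widely. The fitted log2 fold change came to 0.61 (standard error 0.33, unadjusted p = 0.125, edgeR), with -0.15, 0.54 and 1.47 in the mice, and did not pass the thresholds. Mouse 1 and mouse 3 decided its size: without mouse 1 it was 0.997 (unadjusted p = 0.0239) and without mouse 3 it was 0.21 (unadjusted p = 0.313).

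Markers of the hormone-sensing luminal cells differed among themselves. Esr1, the estrogen receptor that induces Areg, gave -0.022 on the log2 scale (standard error 0.12). Pgr, Prlr and Cited1 of the same list had -0.27, -0.59 and -1.06. Ly6a, the highest of that list, was at 0.035. Which cells of these mixed glands the reads of Esr1 and Ly6a came from was not tested. Tnfsf11, a progesterone-induced signal of these cells, gave log2 differences of -0.99, -0.57 and 0.95 in mice 1, 2 and 3. As for Areg, the difference between the glands, Adamts18-/- minus WT, was the most positive in mouse 3. Esr1, Pgr and Tnfsf11 were named after their values were seen. Reads of Areg per 100 reads of Esr1 were 6.38, 15.1 and 4.53 in WT and 5.65, 18.6 and 15.8 in Adamts18-/- glands of mice 1, 2 and 3. With scaling to the pan-epithelial markers Areg was called higher (log2 fold change 1.11, adjusted p = 0.0124, edgeR), where 4120 genes in all were called higher. Its adjusted p over the other alternatives was above that value and reached 1.

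Tgfa, an Egfr ligand made by epithelial cells, was at 7.34, 7.62 and 7.12 CPM in WT and at 7.09, 6.60 and 5.92 CPM in Adamts18-/- glands. It was lower in all 3 mice. Its groups did not overlap, which held, in either direction, for 4.94% of all tested genes and, among the members, for Tgfa and Egf alone. The difference was small, at -0.17 on the log2 scale (standard error 0.13, unadjusted p = 0.234, edgeR). Btc, which binds Egfr and Erbb4, was at 5.59, 4.83 and 5.36 CPM in WT and at 5.99, 5.33 and 3.66 CPM in Adamts18-/- glands, slightly higher in mice 1 and 2 and lower in mouse 3 (log2 fold change -0.10, standard error 0.20, unadjusted p = 0.632, edgeR).

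Hbegf, the heparin-binding ligand encoded at chr18:36504927-36515805, was at 5.61, 2.63 and 3.71 CPM in WT and at 7.25, 6.44 and 2.64 CPM in Adamts18-/- glands. It was higher in mice 1 and 2 and lower in mouse 3, and its log2 fold change of 0.39 (standard error 0.37, unadjusted p = 0.339, edgeR) became 0.83 without mouse 3, where it passed the thresholds (unadjusted p = 0.0223), and -0.055 without mouse 2. Nrg1, the ligand of Erbb3 and Erbb4, was the scarcest, with 17 to 91 reads per gland. Its levels were 0.358, 1.30 and 0.551 CPM in WT and 0.325, 1.502 and 0.830 CPM in Adamts18-/- glands, so that mice differed more than genotypes (log2 fold change 0.24, standard error 0.24, unadjusted p = 0.375, edgeR).

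**Figure D4:**
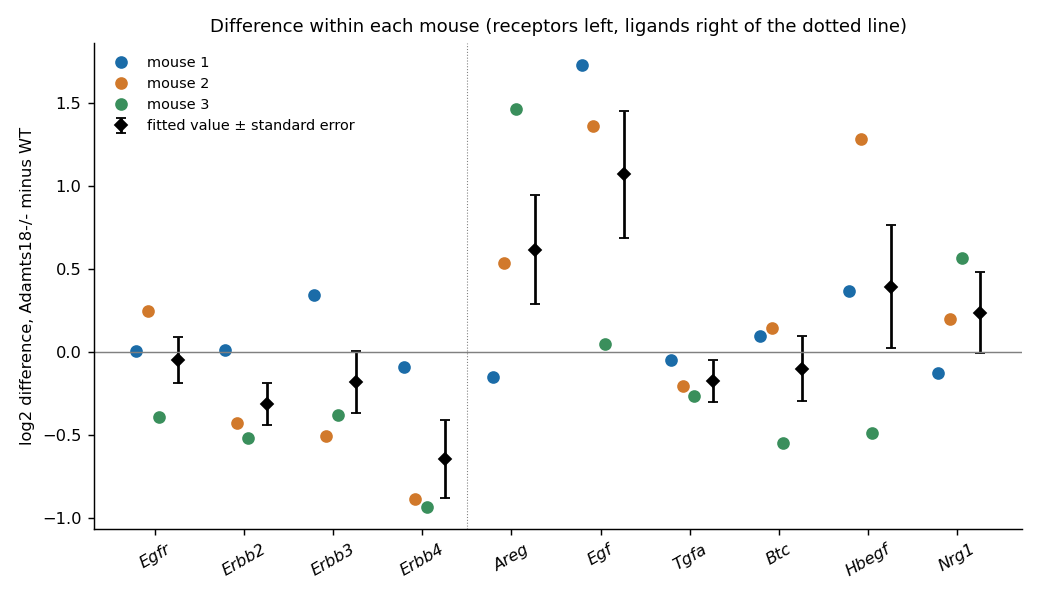
Log2 difference between the contralateral glands of each mouse (colored circles) and the fitted log2 fold change ± standard error (black diamonds) for each member. The 4 receptors have fitted values from -0.64 to -0.049, and the ligands spread from -0.17 for Tgfa to 1.07 for Egf, with mice on both sides of 0 for Areg, Btc, Hbegf and Nrg1.

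Taking the members by role, all 4 receptors had a fitted value below 0 (median -0.25) and 1 of them, Erbb4, was lower in all 3 mice, whereas 4 of the 6 ligands had a value above 0 (median 0.31), with Egf higher and Tgfa lower in all 3 mice. Among all tested genes, 12.7% were lower and 10.8% higher in all 3 mice. Under scaling to the pan-epithelial markers the receptors Egfr, Erbb2 and Erbb3 and the ligands Tgfa and Btc changed sign, while Erbb4 stayed below 0 (-0.16). Egfr was also above 0 when mice were not blocked (0.029) and without mouse 3 (0.13), so the direction shared by the receptors depends on these settings.

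The other genes of the pathway were taken from lists by role. Of 5 further ligands, Ereg, Epgn and Nrg3 did not pass the filter, with group means of at most 0.114 CPM, and Nrg2 and Nrg4 were not called. Nrg4, an Erbb4 ligand secreted by fat, was named after its values were seen: with 97.9 CPM in WT and 98.9 CPM in Adamts18-/- glands (means, n = 3 each) it had more reads than any of the 6 member ligands, and its log2 fold change came to 0.0060 (standard error 0.071). The summed adipocyte markers differed by -0.15, 0.09 and -0.36 on the log2 scale in mice 1, 2 and 3.

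Of 10 genes for ligand shedding none was called (0 lower, 0 higher; median log2 fold change 0.040). They include the sheddases Adam17 (0.093, standard error 0.069) and Adam10 (-0.11, standard error 0.079) and Rhbdf1, an iRhom that regulates Adam17 (-0.23, standard error 0.11). Of 17 inhibitors of ErbB signaling none was called either (median -0.047). Errfi1, a feedback inhibitor that binds the kinase domain of the receptors, was at -0.0099 (standard error 0.29), Lrig1, which promotes loss of the receptors, at -0.052 (standard error 0.081), and Dusp6, an ERK phosphatase, at 0.17 (standard error 0.087). Of 22 adaptors and effectors tested none was called (median -0.014). Grb2 and Shc1, which link the receptors to Ras, were at 0.12 and -0.045 (standard errors 0.10 and 0.076), and the docking protein Gab1 was at -0.19 (standard error 0.075). The number of these genes with an unadjusted p under 0.05 in edgeR's test was 0, 1 and 0 in the 3 lists. Among genes named after their values were seen, the protease Adam8 was called higher with DESeq2, without a filter and without mouse 1, and Adam12 without mouse 1. The phosphatase Dusp4 was the inhibitor with an unadjusted p under 0.05 (reported fit -0.32, unadjusted p = 0.00737, adjusted p = 0.987, edgeR). It was lower in each mouse (-0.37, -0.28 and -0.29) and missed the thresholds only by its fold of 0.803. Dusp4 was called lower with upper quartile scaling, with library size alone, without a filter and without mouse 2. The adaptor Grb7 was called lower without mouse 1. Errfi1 was called higher without mouse 3. Scaling to the pan-epithelial markers called 4, 6 and 5 genes of the 3 lists higher.

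Of 10 genes induced by ErbB and MAPK signaling, 3 were higher in Adamts18-/- glands, none was lower and 7 did not pass, with a median of 0.065. Of all tested genes, 1.17% were called higher. The adjusted p of each of the 3 was 0.987 in edgeR. The 3 are immediate early transcription factors, which many other stimuli also induce. Fos was at 269.9, 92.2 and 41.2 CPM in WT and 669, 261 and 49.8 CPM in Adamts18-/- glands (log2 fold change 1.04, standard error 0.27, unadjusted p = 0.0131). It was higher on the Adamts18-/- side of each mouse, while mouse 3 was low on both sides. Egr1 was at 270, 234 and 59.0 CPM in WT and at 464, 396 and 70.5 CPM in Adamts18-/- glands (0.60, standard error 0.14, unadjusted p = 0.00820). Junb was at 88.6, 51.4 and 39.6 CPM in WT and at 119, 69.1 and 49.0 CPM in Adamts18-/- glands (0.39, standard error 0.067, unadjusted p = 0.00263, edgeR for each). Each was higher in all 3 mice. For each of the 3 genes the groups overlapped and mouse 3 was lowest on both sides. Ccnd1, the cyclin of the G1 phase, was at -0.19 (standard error 0.094) and was not called. Without the mouse as a block none of the 10 was called (0), without mouse 1 Junb alone was, and without mouse 2 Egr1 and Junb were.

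The genes most like Erbb4 over the 6 glands were Ccdc129 (r = 0.996), Gm17520 (r = 0.996) and Gm4211 (r = 0.990), of which Ccdc129 was itself called lower, with a log2 fold change of -0.87. Those most like Erbb3 were Hsbp1l1 (r = 0.991), Eif2c4 (r = 0.988) and Slc12a2 (r = 0.984), and those most like Areg were Mthfd1 (r = 0.991), Plod2 (r = 0.985) and Trip11 (r = 0.983). Gm17520, Gm4211 and Hsbp1l1 were scarce, with means of 0.237, 0.667 and 0.744 CPM over the 6 glands, where counting error is larger. All values of r are Pearson correlations of log2 CPM over 6 glands that share 3 hosts. They were picked as the highest among all tested genes, and 29 to 154 genes had a value above 0.95 for each of these members, so they describe these glands only.

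**Figure D5:**
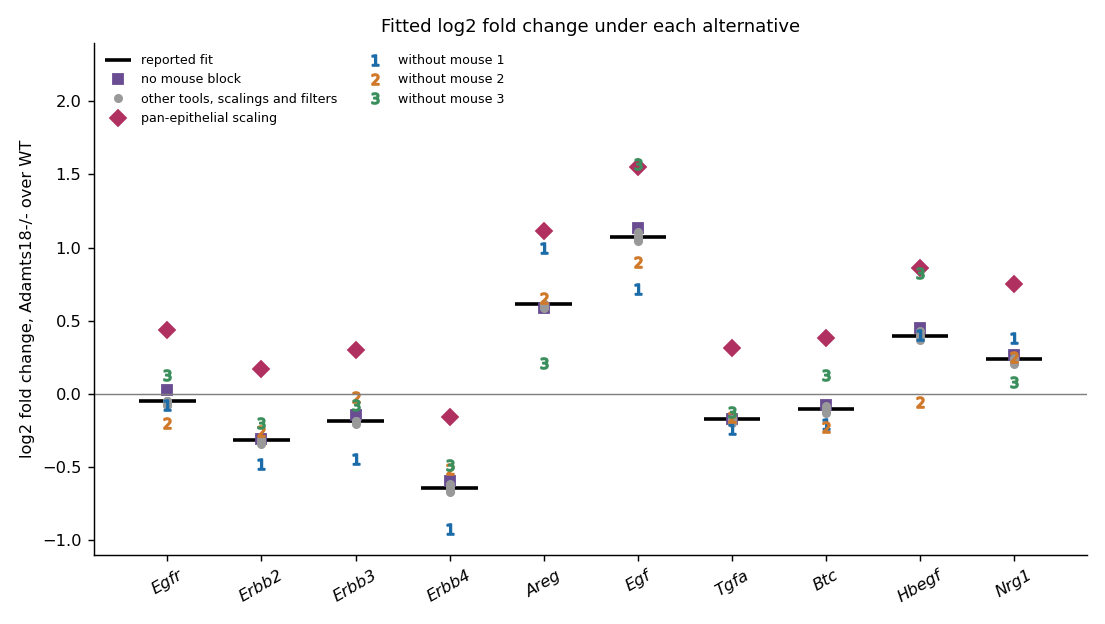
Fitted log2 fold change of each member in the reported fit (black bar), without the mouse as a block (square), with each mouse left out (numerals 1 to 3), with scaling to the pan-epithelial markers (diamond) and under the other tools, scalings and filters (grey circles). Scaling to epithelial markers lifts every member by about the same amount, and leaving out a mouse moves Areg, Egf and Hbegf most.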

How the data were processed

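The deposited values are unnormalized read counts by gene symbol, made by the authors for 6 libraries of 85-base single-end reads. The submitters' processing notes name bcl2fastq 2.18, TopHat2 2.0.11, featureCounts 1.6.2, edgeR and the mm9 build. Annotation and strand settings are not given in the sources used here. Libraries were grouped by genotype and mouse from their titles.

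The counts went into edgeR 4.0.16 under R 4.3.3 (filterByExpr, TMM, quasi-likelihood test, mouse as a block), with Benjamini-Hochberg adjustment over 17345 genes. The block follows the study, which removed mouse effects, and it also takes in donor and experiment. Contralateral glands deviated together (r = 0.512, 0.505 and 0.639 across genes, group means removed). Mice served as replicates. Log2 CPM used a prior count of 2. Alternatives, including DESeq2 1.42.0 and limma-voom 3.58.1, are given at the end. Exon lengths came from GENCODE M21 (GRCm38), another build than that of the counts, which can shift levels per length.

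The members, the lists of pathway and marker genes and the tests were chosen with earlier results of these data known. Named genes were the members, the first 3 genes of each pathway list, list genes past the thresholds, the highest gene of each marker list and Adamts18. The 3 genes most correlated with a called member, or with the member receptor or ligand highest per kilobase of exon, were also named. Genes named outside this rule are Nrg4, Adam8, Adam12, Dusp4, Grb7, Esr1, Pgr, Tnfsf11 and, as members of the muscle list, Acta1, Ckm, Myh1 and Ttn. The list genes Hras and Adgre1 were not analysed here, and 1 marker list is not reported here.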

Additional observations from a re-analysis of the deposited data

How the results depend on the processing

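Of 120 values (10 members under 12 alternatives), 98 kept their direction and side of the thresholds, 6 lost and 7 gained the call, and 9 changed sign. With no mouse as a replicate block, 125 genes were lower, no member was (0), and Egfr was at 0.029; Egf kept its call. With scaling to the pan-epithelial markers, 31 genes were lower and 4120 higher, 0 members were lower and 4 higher (Areg, Egf, Hbegf and Nrg1), and the log2 fold changes of Egfr, Erbb2, Erbb3, Tgfa and Btc were 0.43, 0.17, 0.30, 0.31 and 0.38; that scaling moves all genes up by construction. By adjusted p under 0.05 (edgeR), 0 genes were lower and 0 higher, and 0 members either way, with 670 genes at an unadjusted p under 0.05. The adjusted p was under 0.05 for 71 genes with DESeq2, for 268 without mouse 3 and for 598 with scaling to the pan-epithelial markers (edgeR for both), and for 0 under the other alternatives; of the members, Egf passed without mouse 3, and Egf and Areg with that scaling. The genes called higher, 203 in the reported fit, numbered 340 with DESeq2, 345 with limma-voom and 352 without a filter, the last with more genes tested.

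With each mouse left out in turn, the genes called lower numbered 214 to 481 and those called higher 182 to 581, the members called lower 0 to 3 (3 without mouse 1, 0 without mouse 2 or 3) and those called higher 0 to 2 (0 without mouse 2, 2 without mouse 3). Log2 fold changes ran from -0.055 (without mouse 2) to 0.83 (without mouse 3) for Hbegf, from -0.20 to 0.13 for Egfr and from -0.225 to 0.13 for Btc, in the same order. The cause was not tested. The low counts of Nrg1, Egf and Erbb4 limit their precision, as do 3 pairs of glands.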

Other observations

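Reads of Egf per 100 reads of Areg were 18.8, 14.2 and 50 on the WT side (mouse 1, mouse 2, mouse 3) and 70.3, 25.4 and 18.6 on the Adamts18-/- side, higher with the Adamts18-/- graft in mice 1 and 2 and lower in mouse 3. The leukocyte markers, led by Ptprc, summed to 166 to 356 CPM in WT glands and to 201, 164 and 968 CPM in Adamts18-/- glands, so the gland in which Areg was most above its partner (mouse 3) was also the one with the highest leukocyte sum. The endothelial markers, led by Pecam1, summed to 629 to 886 and 553 to 895 CPM, with 0 of 5 called in the blocked edgeR fit and 1 without mouse 2. The highest of the secretory luminal list was Kit and the highest pan-epithelial marker was Krt19. No part of these markers in the members' values was tested.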
